A study of Homo sapiens with 18 samples.

Results

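Withanone (WN) was compared with its solvent DMSO in SK-N-SH cells on 6 of the 18 arrays of the study, 3 titled as WN and 3 as DMSO, which are all arrays of these treatments in this line. SK-N-SH is an established human neuroblastoma line that is known to lack amplified MYCN and to hold neuroblast-like and flat, substrate-adherent cells side by side. Cells received 1 µM WN or DMSO for 24 h, and each treatment had 3 biological replicates per the design text. Total RNA was measured on Illumina bead arrays. The study also holds SK-N-SH cells given 1 µM withaferin A (WA) for 24 h and IMR-32 cells, from another neuroblastoma line, given WN, WA or DMSO in the same way, with 3 arrays for each. Its title concerns the induction of ferroptosis in high-risk neuroblastoma.

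Withanone and withaferin A are withanolides, steroidal lactones made by the plant Withania somnifera, and they differ in where their epoxide and hydroxyl groups sit on the steroid rings. Withaferin A is known to bind cysteine thiols of proteins. Cells answer thiol stress through the transcription factor NRF2, which the adaptor KEAP1 normally keeps low, through heat shock factor and through the integrated stress response with its factor ATF4. Ferroptosis is cell death by iron-dependent lipid peroxidation, which the selenoenzyme GPX4 holds in check with glutathione made from imported cystine.

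All levels below are log2 normalized array signals of the brightest probe of a gene, and all changes are differences of group means on that scale, given ± the standard error of the limma fit with n = 3 arrays per group. The WN arrays were dimmer than the DMSO arrays. The brightest probe read 20817.6 to 21479.9 before normalization with WN and 31449.9 to 34608.3 with DMSO. Probes above background throughout the series had a median signal of 388 to 425 with WN and 435 to 505 with DMSO. Of the deposited detection p-values, 67.6 to 68.0% tracked the array's own signals with WN and at least 99.99% did so with DMSO, so those of the WN arrays were derived again from their signals. The WN arrays of IMR-32 were dimmer too, so brightness and withanone cannot be told apart in either line. After normalization the replicate 3 arrays of WN and of DMSO both stood apart from replicates 1 and 2. WN and DMSO arrays of the same number deviated together from their group means across 12975 genes. Their r was 0.458, 0.372 and 0.663 for numbers 1, 2 and 3. Unlike numbers did so too for WN 1 with DMSO 2 (r = 0.317) and WN 2 with DMSO 1 (r = 0.231). Pairs of number 3 with 1 or 2 had r from −0.538 to −0.436. Whether arrays 1 and 2 are paired by number was not tested. The fit with replicate number as a block is given where it changes a result.

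Markers of both cell states known in SK-N-SH were measured on the WN and the DMSO arrays. Of 36 adrenergic neuroblast markers 33 were measured, and their summed unlogged level was 67575 to 99197 on WN arrays and 58139 to 94930 on DMSO arrays. Of 35 mesenchymal markers 34 were measured, with sums of 73348 to 101323 under WN and 72815 to 108313 under DMSO. Only 4 of 16 immune cell markers (CD8A, CD14, CD68 and AIF1) and 3 of 14 Schwann cell markers (NGFR, MBP and POU3F1) passed the detection filter in the series. Their sums were 436 to 588 and 86.0 to 91.5 under WN, against 408 to 446 and 105 to 148 under DMSO. Of the 3 Schwann cell markers 2 were detected on no WN array, so the WN sums of that list hold signals near background. The leukocyte marker PTPRC and the Schwann cell factor SOX10 were not among those measured.

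In the fit of 18 arrays few genes differed between the WN and the DMSO arrays, most of them by less than 2-fold. That fit pools the spread of each gene over both lines. The median SD within groups was 0.186 over the 9 IMR-32 arrays, 0.251 over the 9 SK-N-SH arrays and 0.217 over SK-N-SH WN and DMSO. Of 12975 genes tested, 238 (1.83%) passed an adjusted p of 0.05, 120 higher (0.925%) and 118 lower (0.909%) with WN. The changes ran from a rise of 1.69 to a fall of −1.20, and 52 of the 238 genes moved at least 2-fold, 42 upward and 10 downward. For all 238 the 3 WN arrays lay beyond the 3 DMSO arrays, which held for 2826 of all genes (21.8%). With the replicate block 495 genes passed (3.82%), 224 higher (1.73%) and 271 lower (2.09%), among them 237 of the 238. Limma on the 9 SK-N-SH arrays or on the 6 WN and DMSO arrays alone called 0 genes, with 1579 and 1948 genes at an unadjusted p under 0.05 against 2202 (17.0%) in the fit of 18 arrays. With the replicate block, the 9 arrays gave 0 calls (2081 at an unadjusted p under 0.05) and the 6 arrays 631, among them 210 of the 238. Leaving out WN replicate 1, 2 or 3 gave 1, 26 or 152 calls, and leaving out DMSO replicate 1, 2 or 3 gave 30, 128 or 55.

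The gene that rose most was SPIN1, which encodes spindlin 1, a reader of methylated histone H3. SPIN1 had levels of 8.74, 8.81 and 8.35 on the WN arrays and 6.86, 7.89 and 6.09 on the DMSO arrays, a rise of 1.69 ± 0.37 (adjusted p = 0.0321). The DMSO arrays differed among themselves by more than the rise, although none reached the lowest WN array. ZNF394, a zinc finger protein gene, had 11.87, 11.66 and 12.09 under WN and 10.62, 10.63 and 10.24 under DMSO, a rise of 1.37 ± 0.22 (adjusted p = 0.0154). The zinc finger transcription factor gene ZNF281 had 9.84, 9.80 and 9.46 under WN and 8.55, 8.62 and 7.96 under DMSO, a rise of 1.32 ± 0.27. In both genes the groups were separate, which held for every called gene. SEMA3E, which encodes a secreted semaphorin that signals through plexin D1, had 10.62, 10.38 and 10.98 under WN, against 9.58, 9.09 and 9.36 under DMSO (a rise of 1.32 ± 0.27, adjusted p = 0.0246). IKZF4, a transcription factor of the Ikaros family, had 7.53, 7.36 and 7.23 under WN, against 6.18, 6.40 and 5.90 under DMSO, a rise of 1.21 ± 0.17 with an adjusted p of 0.0095. In both genes every WN array was above every DMSO array.

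Another 10 genes completed the largest rises, between 1.16 and 1.31. They included RNA-binding proteins (LRRFIP1 at 1.31, the Smaug homologue SAMD4B at 1.29 and the nuclear scaffold protein HNRNPU at 1.20), the RING domain protein RSPRY1 (1.26), the actin regulator SHROOM4 (1.24) and TMEM17, a membrane protein of the ciliary transition zone (1.23). The zinc finger genes ZNF483 and TSHZ2 rose by 1.21 and 1.20, and the noncoding RNA LINC01102 by 1.18. TDRD1, a tudor domain protein of the germline piRNA pathway, rose by 1.16, and its other measured probe gave 0.93. The other probe of HNRNPU gave −0.41 and that of ZNF483 gave −0.02, so those rises were seen with 1 of 2 probes. For ZNF394 and TMEM17 the other probe gave a smaller rise of 0.20 and 0.33.

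The largest fall was that of SLC38A4, a transporter of neutral amino acids. It had 6.26, 5.87 and 6.47 on the WN arrays and 7.12, 7.60 and 7.47 on the DMSO arrays, a fall of −1.20 ± 0.21 (adjusted p = 0.0165). P2RY11, a purinergic receptor that responds to ATP, gave the lowest adjusted p of the comparison (0.00154). Its levels were 6.49, 6.59 and 6.62 under WN and 7.88, 7.56 and 7.53 under DMSO, a fall of −1.09 ± 0.12 in which the groups were far apart and each group was tight. P2RY11 forms read-through transcripts with its neighbour PPAN, which a probe may not tell apart. RCOR2, a corepressor of the CoREST complex, had 7.84, 7.84 and 7.58 under WN, against 9.11, 9.09 and 8.50 under DMSO, and fell by −1.15 ± 0.26. PTK7, a catalytically inactive receptor kinase of Wnt and planar polarity signalling, had 7.75, 7.35 and 7.83 under WN, against 9.01, 8.31 and 9.05 under DMSO (a fall of −1.14 ± 0.25). The other probe of PTK7 gave −0.20, and the mean of both probes −0.67 (adjusted p = 0.190, and 0.0010 to 0.728 over the alternatives).

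IMPACT, an inhibitor of the stress kinase GCN2, had 4.90, 5.52 and 4.74 under WN, where it was detected on 1 of 3 arrays, and 5.93, 6.34 and 6.19 under DMSO, where it was detected on all 3. It fell by −1.10 ± 0.19. The cyclophilin gene PPID was not detected on any WN array and was at least 2.01-fold lower than under DMSO (adjusted p = 0.022). GSDMA, a pore-forming gasdermin, was also undetected under WN and at least 1.67-fold lower (adjusted p = 0.0379). These bounds set the mean of the DMSO arrays against, per WN array, the higher of the lowest detected signal and the signal of the gene.

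SNORD104, a small nucleolar RNA that guides ribosomal RNA methylation, had 7.59, 7.65 and 7.71 under WN and 8.82, 8.88 and 8.46 under DMSO, a fall of −1.07 ± 0.17 (adjusted p = 0.0129) with both groups tight. RPL21, a ribosomal protein gene with many processed pseudogenes that its probe may not tell apart, had 11.60, 11.25 and 11.77 under WN and 12.92, 12.25 and 12.57 under DMSO, a fall of −1.04 ± 0.17. TGS1, the enzyme that trimethylates the caps of small nuclear RNAs, fell by −0.97 ± 0.21. The remaining large falls were SIPA1, a GTPase-activating protein for Rap (−1.16), LKAAEAR1 (−0.95), IMPDH1, an enzyme of guanine nucleotide synthesis (−0.95), the mitochondrial membrane protein gene TMEM160 (−0.94) and the sulfotransferase gene GAL3ST3 (−0.93). The other probe of SIPA1 gave 0.04 and both others of IMPDH1 gave 0.39, so these falls too were seen with 1 probe. For TGS1 and GAL3ST3 the other probe gave a smaller fall of −0.36 and −0.23.

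**Figure D1:**
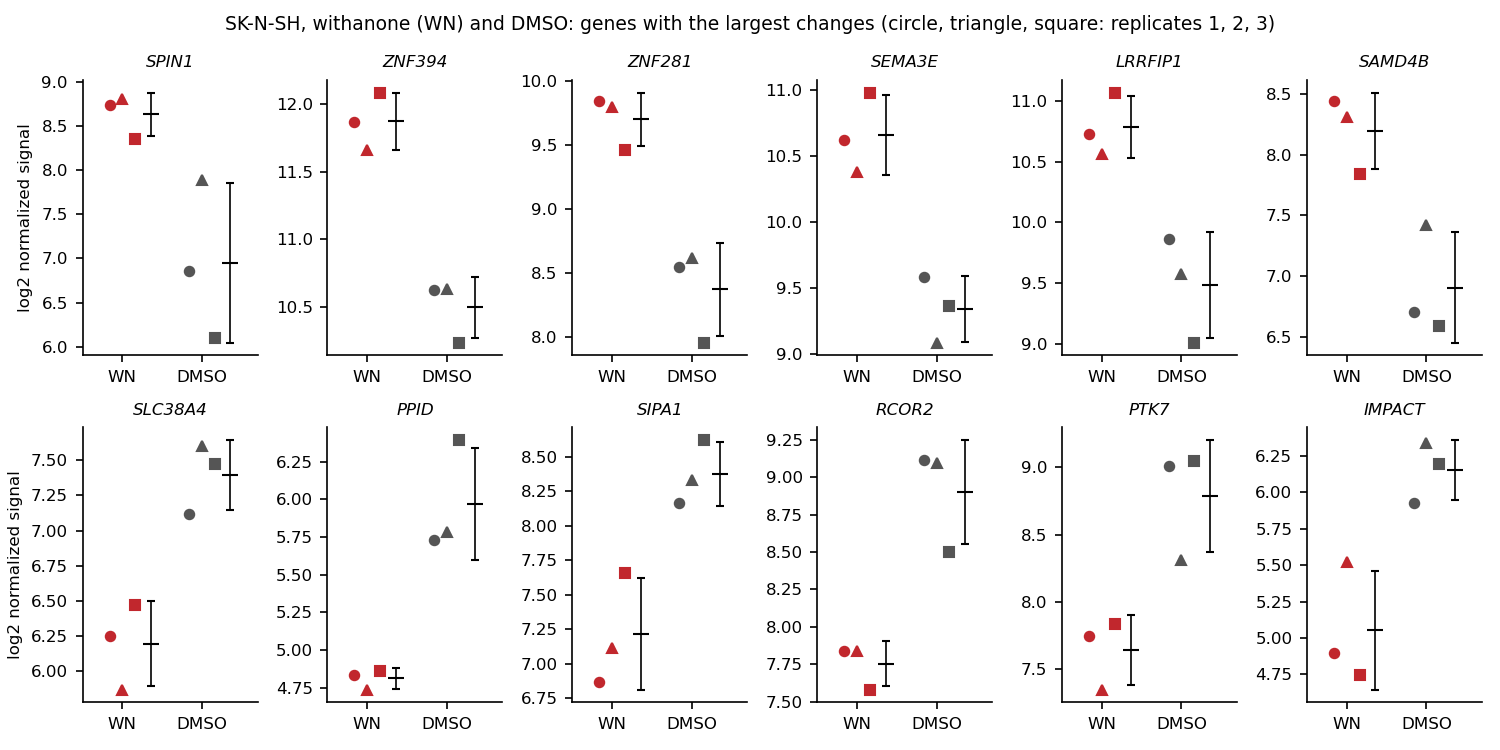
Log2 normalized signals of the 6 genes with the largest rise (upper row) and the 6 with the largest fall (lower row) in SK-N-SH, WN arrays in red on the left and DMSO arrays in grey on the right of each panel, each with its own vertical axis that does not start at 0. Symbols stand for replicates 1 to 3 and the black bars for the mean ± SD of 3 arrays. No WN array overlaps a DMSO array in any panel, which the choice of genes required. The DMSO arrays of SPIN1 spread from 6.09 to 7.89.

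Among the 34 called genes that the naming rule gave, many did not pass once 1 array was left out. Whether the array itself or the smaller group cost the calls was not tested. Without WN replicate 1 P2RY11 was the 1 gene of the 34 that passed, and without WN replicate 2 or DMSO replicate 1 there were 11 and 10. Without WN replicate 3, DMSO replicate 2 or DMSO replicate 3 there were 22, 23 and 14. Without replicate 3 of both groups IKZF4, NDUFS7, P2RY11, SNORD104 and TMEM160 passed. The direction of all 34 changes was the same in each of these fits. That was fixed in advance, because the WN and DMSO arrays of every called gene did not overlap. With the mean of all kept probes of a gene in place of the brightest, 25 of the 34 passed and 9 did not, namely ZNF394, ZNF483, HNRNPU, SIPA1, PTK7, IMPDH1, GAL3ST3, NOP14 and NDUFB7.

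Few members of the stress, metabolism and cell state lists changed. Across 29 gene lists, 4 of 686 measured members (0.583%) passed the test, against 1.83% of all genes, and all 4 were lower with WN. With the replicate block 21 members passed, against 3.82% of all genes. At an unadjusted p under 0.05 there were 96 members (14.0%), 40 higher and 56 lower, against 17.0% of all genes. The lists overlap in part, and a member counts once in these totals.

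None of the 27 measured NRF2 targets passed, and their median change was −0.05, against −0.02 over all genes. At an unadjusted p under 0.05 there were 5, with 2 higher and 3 lower. TRIM16L was undetected on the WN arrays, and BLVRB, which encodes biliverdin reductase B, was detected on 1 of 3 WN arrays and gave −0.59 ± 0.24. Of 30 genes of the integrated stress response 0 passed and 1 had an unadjusted p under 0.05, with a median of −0.08 and a range from −0.48 to 0.31. The amino acid transporters SLC38A2 (−0.48 ± 0.21) and SLC7A5 (−0.38 ± 0.20) had the largest differences. Of 27 heat shock genes 0 passed and 3 had an unadjusted p under 0.05, with a median of −0.08. Of 20 genes of the unfolded protein response 0 passed and 2 had an unadjusted p under 0.05, and the block added SDF2L1, a chaperone partner of the endoplasmic reticulum, at −0.53 (adjusted p = 0.0773, and 0.0464 with the block, 0.00932 to 0.317 over the alternatives).

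Iron, lipid and ferroptosis genes gave 0 calls as well. The median change was −0.04 for 18 iron-handling genes, 0.12 for 23 ferroptosis regulators, −0.02 for 35 genes of glutathione and selenoproteins, 0.02 for 19 genes of cholesterol synthesis and 0.13 for 12 of fatty acid synthesis. At an unadjusted p under 0.05 there were 2, 4, 5, 5 and 3 of them. PCBP2, an RNA-binding protein that also carries iron, had 13.83, 13.57 and 13.41 under WN and 13.16, 13.15 and 12.99 under DMSO. The groups did not overlap, and the difference of 0.50 ± 0.13 had an adjusted p of 0.0566, or 0.0332 with the block (0.0114 to 0.680 over the alternatives). Its 3 other probes gave −0.16 to 0.19. MBOAT1, an acyltransferase that remodels membrane phospholipids, had 7.60, 7.63 and 7.58 under WN and 7.10, 6.84 and 7.18 under DMSO. Its difference of 0.56 ± 0.22 passed with the block alone (adjusted p = 0.204, and 0.0343 with the block, 0.0343 to 0.399 over the alternatives). CYP51A1, an enzyme of cholesterol synthesis, had 5.74, 5.70 and 5.97 under WN and 6.49, 6.36 and 6.34 under DMSO, and its difference of −0.59 ± 0.16 passed with the block (adjusted p = 0.0773, and 0.0397 with the block, 0.00826 to 0.243 over the alternatives).

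The proliferation genes did not pass either. Of 34 DNA replication genes 0 passed, with a median of 0.04 and 2 at an unadjusted p under 0.05, and of 38 mitosis genes 0 passed, with a median of −0.07 and 1 at that p. RRM1, the large subunit of ribonucleotide reductase, had 12.21, 11.85 and 11.63 under WN and 11.60, 11.56 and 11.16 under DMSO. Its groups were separate by a narrow margin, and the difference of 0.46 ± 0.17 passed with the block alone (adjusted p = 0.17, and 0.0428 with the block, 0.0428 to 0.502 over the alternatives). Of 24 p53 targets 0 passed, 3 had an unadjusted p under 0.05 and the median was −0.01. ZMAT3, an RNA-binding p53 target, gave 0.71 ± 0.21 and RRM2B, the p53-induced ribonucleotide reductase subunit, −0.76 ± 0.26, so that members of the list with the largest differences lay on opposite sides of 0.

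The 4 list members that passed belonged to ribosome biogenesis, the respiratory chain and SMAD signalling. NOP14, a factor of small ribosomal subunit assembly, had 7.36, 7.46 and 7.58 under WN and 8.15, 7.80 and 8.12 under DMSO, a fall of −0.55 ± 0.13 (adjusted p = 0.0369), and was the 1 call among 29 genes of that list. SMAD6, an inhibitory SMAD of BMP signalling, had 8.15, 8.38 and 8.34 under WN and 9.07, 9.14 and 9.26 under DMSO, a fall of −0.86 ± 0.17 (adjusted p = 0.022), and was the 1 call among 17 genes of TGF-beta and SMAD signalling, where the block gave 1 higher and 2 lower. Both groups of SMAD6 were tight and did not overlap.

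NDUFS7 and NDUFB7 encode subunits of complex I, the NADH dehydrogenase of mitochondria. NDUFS7 had 9.62, 9.88 and 9.85 under WN and 10.59, 10.64 and 10.40 under DMSO, a fall of −0.76 ± 0.12 (adjusted p = 0.0129). NDUFB7 had 11.34, 11.45 and 11.40 under WN and 12.13, 11.90 and 12.06 under DMSO, a fall of −0.63 ± 0.16 (adjusted p = 0.0491). In both genes every WN array was lower. They were the 2 calls among 40 genes of the respiratory chain and ATP synthase, whose median was −0.13, with 12 at an unadjusted p under 0.05, 4 higher and 8 lower. A count over all 42 measured genes whose symbol starts with NDUF, made after the values were seen, gave 3 lower (7.14%, against 0.909% of all genes) and 0 higher, with a median of −0.21. The third, NDUFC2, was undetected on the WN arrays and at least 1.29-fold lower (adjusted p = 0.0165). In IMR-32 cells 7 of the 42 were lower (16.7%, against 2.19% of all genes) and 0 higher with WN, with a median of −0.23.

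Among 41 cytosolic ribosomal protein genes 0 passed and 5 had an unadjusted p under 0.05, with a median of −0.05 and RPL14 the lowest at −0.75 ± 0.26. Of 28 proteasome genes 0 passed and 8 had an unadjusted p under 0.05, with a median of 0.05 and PSMD11, a subunit of the regulatory particle, the highest at 0.69 ± 0.23. The 7 measured metallothioneins and zinc regulators gave a median of −0.49, the lowest of the lists, with 0 calls, 5 at an unadjusted p under 0.05 and 2 lower calls with the block. Within that list the zinc-sensing factor MTF1 lay on the other side. MTF1 had 9.24, 8.98 and 8.72 under WN and 7.92, 8.11 and 7.66 under DMSO, and although the groups did not overlap the difference of 1.08 ± 0.29 had an adjusted p of 0.0675.

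Of 20 replication-dependent histone genes, whose close copies a probe may not tell apart, 0 passed, 2 had an unadjusted p under 0.05 and 3 were lower with the block. Of 22 small nuclear and nucleolar RNAs 0 passed and 3 had an unadjusted p under 0.05, with a median of −0.18. Of 27 immediate early genes 0 passed, the block added 1, 5 had an unadjusted p under 0.05 and the median of 0.20 was the highest of the lists. The phosphatase genes DUSP4 (0.76 ± 0.23) and DUSP6 (0.75 ± 0.30), which dampen ERK signalling, had the largest differences of that list. The autophagy and lysosome genes (28), the glycolysis and hypoxia genes (35), the NF-kB targets (13) and the interferon genes (25) gave 0 calls, with medians of −0.01, −0.02, −0.07 and −0.23 and 2, 4, 0 and 5 genes at an unadjusted p under 0.05.

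The markers of cell state also gave 0 calls. The adrenergic list had a median of 0.07 and 1 gene at an unadjusted p under 0.05, and the mesenchymal list had −0.10 and 3 genes. The block added 1 higher adrenergic and 2 lower mesenchymal genes. The lower ones were S100A6, a calcium-binding protein (−0.69 ± 0.19, adjusted p = 0.0238 with the block and 0.0117 to 0.305 over the alternatives), and the transcription factor TWIST2 (−0.68 ± 0.24, 0.0357 with the block and 0.0357 to 0.503 over them). TFAP2B, a factor of the sympathetic lineage, had 11.71, 11.56 and 10.06 under WN and 10.75, 11.02 and 8.63 under DMSO, and SIX3 had 10.52, 10.37 and 8.99 under WN and 9.36, 10.05 and 7.60 under DMSO. In both groups the replicate 3 array was lowest for both genes, and their differences of 0.98 ± 0.48 and 0.95 ± 0.52 did not pass. The immune and Schwann lists had 0 calls, 0 and 1 genes at an unadjusted p under 0.05 and medians of −0.02 and −0.36, and their part in the other results was not tested. The Schwann median rests on 3 genes, 2 of them undetected on all WN arrays.

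**Figure D2:**
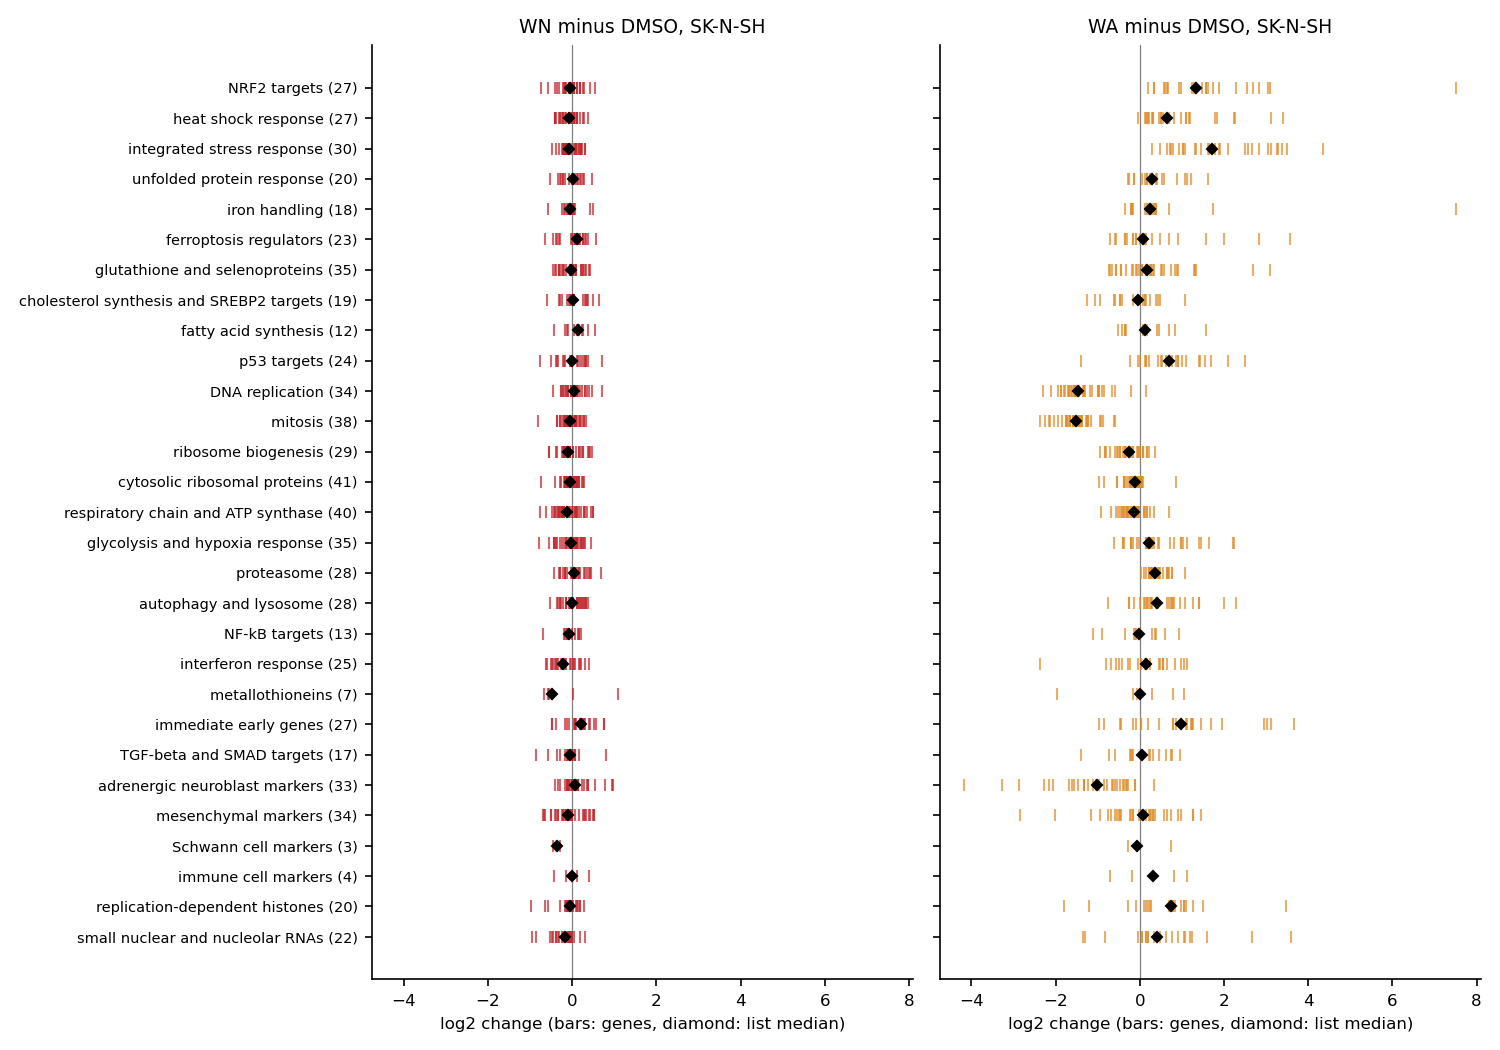
Log2 change of each measured member of 29 gene lists (number of members in brackets) in SK-N-SH, WN minus DMSO on the left and WA minus DMSO on the right with the same horizontal axis, where bars are genes and diamonds are list medians. Under WN the list medians lie between −0.49 and 0.20 and 4 members passed the test, and both panels use the same 3 DMSO arrays.

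The genes followed in every comparison were read singly. HMOX1, which encodes heme oxygenase 1 and had the largest WA change of the NRF2 list, had 5.36, 6.01 and 5.58 on the WN arrays and 5.54, 5.61 and 5.68 on the DMSO arrays. The WN arrays lay on both sides of the DMSO arrays, and the change was 0.05 ± 0.32 (95% interval −0.63 to 0.72). SLC7A11, through which system xc- imports cystine, was detected on 0 of 3 WN arrays and 1 of 3 DMSO arrays, so no fold is given. NFE2L2, the gene of NRF2, had 9.22, 9.20 and 9.49 under WN and 9.30, 9.21 and 9.32 under DMSO, with an interval of −0.42 to 0.47. KEAP1 had 9.70, 9.82 and 9.37 under WN and 9.77, 9.66 and 9.74 under DMSO, with an interval of −0.38 to 0.18.

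GPX4 had 13.28, 13.37 and 13.44 under WN and 13.25, 13.16 and 13.41 under DMSO. The groups overlapped, and the interval of the change ran from −0.20 to 0.39. ACSL4, which feeds polyunsaturated fatty acids into membrane lipids and promotes ferroptosis, had 8.03, 7.77 and 8.52 under WN and 8.58, 8.64 and 9.08 under DMSO. Every WN array was lower than every DMSO array, by a narrow margin, and lower in each pair of the same number. The difference of −0.66 ± 0.22 had an adjusted p of 0.146, and of 0.021 with the block (0.0150 to 0.407 over the alternatives, with 3 of 23 under 0.05). The other probe of ACSL4 gave −0.10, and in IMR-32 cells its change was −0.79 (adjusted p = 0.0527).

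DDIT3, the gene of the stress factor CHOP, had 6.71, 7.04 and 7.36 under WN and 7.25, 7.19 and 7.33 under DMSO, with an interval of −0.86 to 0.43. GDF15, a stress-induced cytokine, was highest on the replicate 3 array of both groups, with 7.51, 8.41 and 9.56 under WN and 8.00, 8.24 and 9.51 under DMSO, and its interval of −1.23 to 1.04 allows a change of 2-fold. HSPA1A, an inducible HSP70 gene with the near-identical copy HSPA1B, had 7.88, 7.46 and 7.58 under WN and 7.97, 8.33 and 7.76 under DMSO, with an interval of −1.06 to 0.30. The thioredoxin inhibitor TXNIP (−0.37 ± 0.22), the transferrin receptor TFRC (−0.04 ± 0.15) and VIM, which encodes vimentin (0.17 ± 0.24), did not pass. MYCN had 8.23, 8.19 and 6.93 under WN and 8.16, 8.25 and 6.57 under DMSO, low on the replicate 3 array of each group, with an interval of −0.63 to 0.88.

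**Figure D3:**
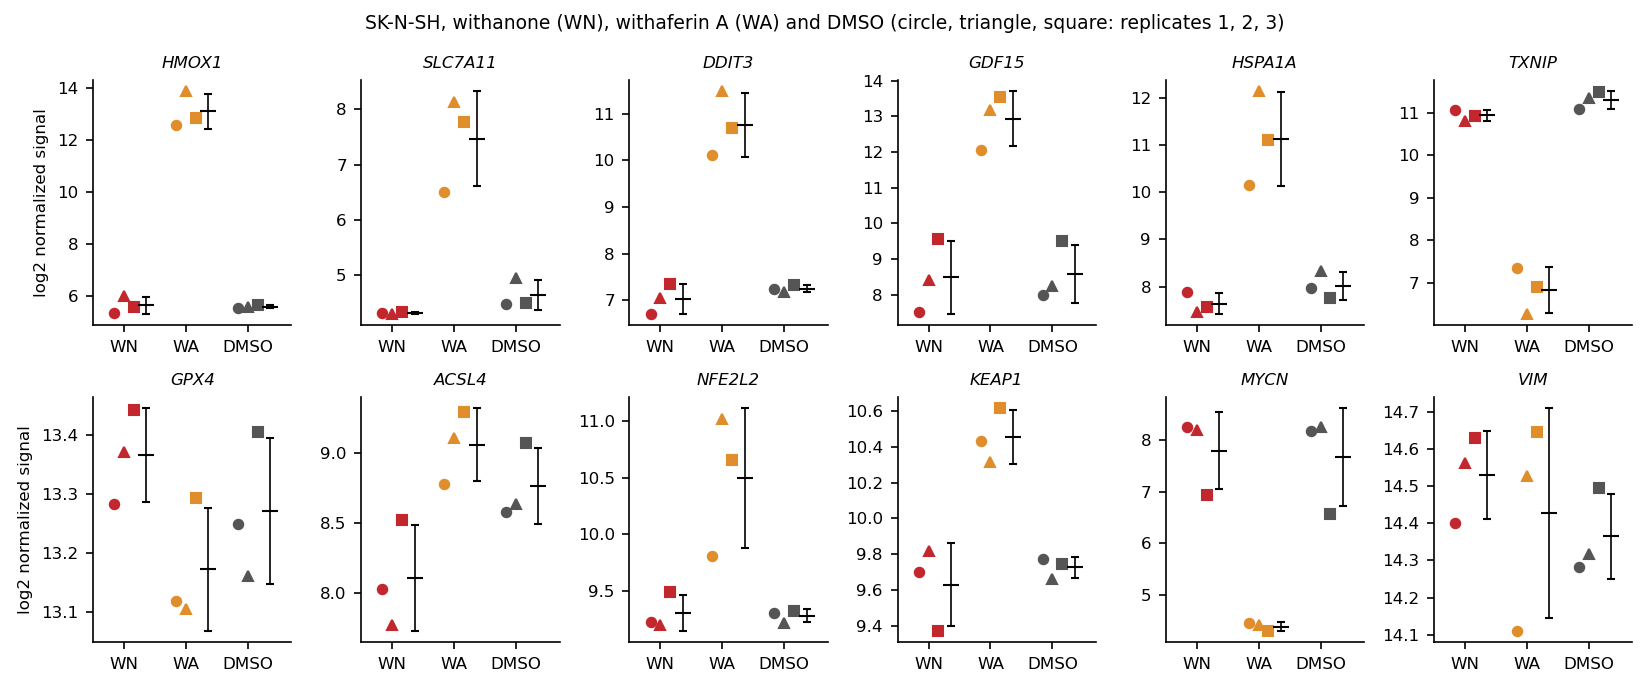
Log2 normalized signals of 12 followed genes in SK-N-SH under WN (red), WA (orange) and DMSO (grey), with symbols for replicates 1 to 3 and black bars for the mean ± SD of 3 arrays, each panel with its own vertical axis that does not start at 0. HMOX1 lies between 5.36 and 6.01 on the WN arrays, 12.60 and 13.90 on the WA arrays and 5.54 and 5.68 on the DMSO arrays.

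Withanone and withaferin A were compared directly at the same dose and time, 1 µM for 24 h, in the 1 pair of compounds that the study holds for this line. Of 12975 genes, 4970 (38.3%) differed, 2290 higher (17.6%) and 2680 lower (20.7%) with WN than with WA, and 1535 of them by at least 2-fold. HMOX1 had 5.36, 6.01 and 5.58 under WN and 12.60, 13.90 and 12.86 under WA, a difference of −7.47 ± 0.32 (95% interval −8.14 to −6.80, adjusted p = 5.43e-10). DDIT3 differed by −3.72 ± 0.30, GDF15 by −4.44 ± 0.54 and HSPA1A by −3.49 ± 0.32, each with all WN arrays far lower. RN7SK, a small nuclear RNA that restrains transcription elongation, differed by −3.92 ± 0.33.

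PPEF1, a calcium-binding phosphatase, had 10.82, 10.34 and 9.90 under WN and 7.64, 5.60 and 4.86 under WA, where it was detected on 2 of 3 arrays, a difference of 4.32 ± 0.45. INSM2, a zinc finger factor of neuroendocrine cells, had 11.04, 10.97 and 8.86 under WN and 6.58, 6.37 and 5.00 under WA, a difference of 4.31 ± 0.57. TXNIP differed by 4.10 ± 0.22 (adjusted p = 9.5e-09). MYCN was undetected on the WA arrays and at least 7.11-fold higher with WN (adjusted p = 5.51e-06). SLC7A11 was undetected on the WN arrays and at least 5.68-fold lower than with WA (adjusted p = 4.1e-06).

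By list, 377 of 686 members (55.0%) differed between the compounds, against 38.3% of all genes. Of the NRF2 targets 25 of 27 were lower with WN than with WA (median −1.39), of the integrated stress response genes 28 of 30 (median −1.64) and of the heat shock genes 19 of 27 (median −0.73), with 0 higher in each. DNA replication genes were higher with WN in 30 of 34 (median 1.51) and mitosis genes in 33 of 38 (median 1.47), with 0 lower. Adrenergic markers were higher with WN in 18 of 33 and lower in 0. The compounds were not told apart for every gene: GPX4 (0.19, interval −0.10 to 0.49), VIM (0.10, interval −0.40 to 0.61), SLC38A4 (0.09, interval −0.36 to 0.55) and NDUFS7 (0.16, interval −0.08 to 0.41) did not pass. The last 2 genes were lower with each compound than on the same 3 DMSO arrays, by −1.20 and −1.29 for SLC38A4 and by −0.76 and −0.92 for NDUFS7 with WN and WA in that order.

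Promoters of 3 of these genes are shown because most members of their lists were lower with WN than with WA and each sequence holds the motif that the factor of its list is known to use. From each list it is the gene with the largest fall of WN against WA among those whose promoter holds the motif, in capitals on either strand. The sequences are RefSeq promoters of GRCh38.p14, from 250 bases before to 50 bases after the transcription start, all on the plus strand. TXNRD1, which encodes thioredoxin reductase 1, spans chr12:104215529-104215828 and holds TGACNNNGC, the core of the antioxidant response element, on both strands, with first bases at −99 and −8 from the start site. SLC3A2, the heavy chain of amino acid transporters including system xc-, spans chr11:62881449-62881748 and holds the amino acid response element TGATGNAA on the minus strand, with its first base at 37 after the start site. HSPA6, a strictly inducible HSP70 gene, spans chr1:161524290-161524589 and holds the heat shock element (GAA, TTC and GAA, each parted by any 2 bases) on the minus strand, with its first base at −74.
TXNRD1: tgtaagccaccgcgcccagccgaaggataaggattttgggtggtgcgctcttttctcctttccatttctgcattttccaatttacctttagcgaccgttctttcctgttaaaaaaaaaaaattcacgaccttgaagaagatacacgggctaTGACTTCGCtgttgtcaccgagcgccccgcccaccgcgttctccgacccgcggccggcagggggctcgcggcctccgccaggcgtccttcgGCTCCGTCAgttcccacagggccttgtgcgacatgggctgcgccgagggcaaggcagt
SLC3A2: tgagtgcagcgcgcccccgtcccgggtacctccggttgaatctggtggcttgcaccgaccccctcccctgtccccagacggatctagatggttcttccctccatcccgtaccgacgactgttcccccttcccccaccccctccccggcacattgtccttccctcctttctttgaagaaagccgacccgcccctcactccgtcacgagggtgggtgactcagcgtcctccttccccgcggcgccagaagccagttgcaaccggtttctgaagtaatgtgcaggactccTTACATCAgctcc
HSPA6: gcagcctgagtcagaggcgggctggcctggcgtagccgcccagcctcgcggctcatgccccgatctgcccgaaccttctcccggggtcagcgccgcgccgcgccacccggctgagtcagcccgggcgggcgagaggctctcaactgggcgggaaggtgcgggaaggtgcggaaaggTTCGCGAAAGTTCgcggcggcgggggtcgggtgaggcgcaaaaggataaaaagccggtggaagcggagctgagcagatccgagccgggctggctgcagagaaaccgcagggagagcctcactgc

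TXNRD1 had 10.00, 9.92 and 9.72 on the WN arrays, 12.19, 12.99 and 13.19 on the WA arrays and 9.97, 10.39 and 9.94 on the DMSO arrays, and WN differed from WA by −2.90 ± 0.21. SLC3A2 had 8.70, 8.82 and 9.16 under WN, 11.45, 12.64 and 12.63 under WA and 9.00, 8.81 and 9.07 under DMSO, a WN minus WA difference of −3.35 ± 0.24. HSPA6 was undetected on the WN arrays and at least 9.50-fold lower than under WA (adjusted p = 0.000445), where it varied from 5.87 to 9.78. The WN arrays of TXNRD1 and SLC3A2 overlapped the DMSO arrays and lay below all WA arrays. The first motif stood in 13.56% of 27305 promoters, 15.14% of those of 10325 tested genes and 6 of 21 NRF2 targets with a sequence. The second stood in 3.67% of all promoters, 1.79% of those of tested genes and 6 of 25 genes of the integrated stress response. For the third these were 0.487%, 0.32% and 6 of 24 heat shock genes. A match is a description of these letters and not a measured binding site.

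Many differences between WN and DMSO recurred in IMR-32 cells, which were measured on other arrays than SK-N-SH. All 18 arrays were normalized together and share the estimate of spread of each gene, so the calls of the lines are not independent. In IMR-32 595 genes (4.59%) passed between WN and DMSO, 311 higher (2.40%) and 284 lower (2.19%). Of the 238 genes called in SK-N-SH 229 (96.2%) had a difference of the same sign there, against 70.9% of all genes. In both lines 104 genes passed, 44 higher and 60 lower in both, which is 43.7% of the SK-N-SH calls and 17.5% of the IMR-32 calls. The higher genes of SK-N-SH had a median change of 0.84 in that line and 0.56 in IMR-32, and the lower genes −0.71 and −0.58. Across 12975 genes the changes of the lines correlated with r = 0.59 (Spearman rho = 0.58), where genes are not independent replicates and the WN arrays of both lines share their low brightness. The WN changes of SK-N-SH set against the WA changes of IMR-32, which share no arrays, gave r = 0.015.

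Among single genes, SNORD104 changed by −1.07 in SK-N-SH and −1.23 in IMR-32 (adjusted p = 0.00375 in IMR-32), RPL21 by −1.04 and −1.18, TGS1 by −0.97 and −1.29, and TMEM160 by −0.94 and −1.12. P2RY11 changed by −1.09 and −0.84, NDUFS7 by −0.76 and −0.82 and RSPRY1 by 1.26 and 0.73, with each of these 7 genes past the threshold in both lines. SLC38A4 was not detected on the WN or the DMSO arrays of IMR-32, so no fold is given for that line. The direct test of a different WN effect between the lines called 0 genes (0.00%) with limma, with 478 at an unadjusted p under 0.05 (3.68%), and also 0 with the replicate block. Of the 238 genes 40 had an unadjusted p under 0.05 in that test.

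**Figure D4:**
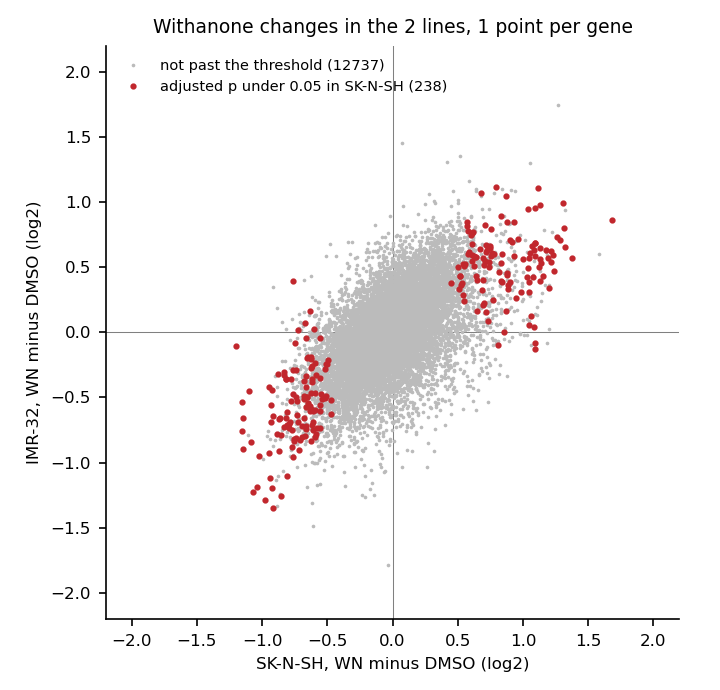
Log2 change of each of 12975 genes under WN against DMSO, SK-N-SH on the horizontal and IMR-32 on the vertical axis, with the 238 genes called in SK-N-SH in red and the others in grey. Of the red points 229 lie on the same side of 0 in both lines, and r over all genes is 0.59.

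Genes with more than 1 measured probe gave a check within the arrays. The 75 called genes with other probes had 94 of them, of which 63 (67.0%) had a difference of the same sign as the brightest probe, against 58.2% of the other probes of all genes. Their median change in the direction of the gene was 0.15, while that of the brightest probes was 0.75. Of the 68 other probes detected on all 6 arrays 49 (72.1%) had the same direction, against 60.6% of such probes of all genes. WA against DMSO called 4134 genes in SK-N-SH (31.9%), 2130 higher (16.4%) and 2004 lower (15.4%). For these calls, 1447 of 1641 other probes (88.2%) had the same direction, with medians of 0.55 and 0.77, against 75.7% for all genes. TDRD1, LKAAEAR1 and PPID were called genes whose other probe followed (0.93, −0.50 and −0.45), and HNRNPU, SIPA1 and IMPDH1 were called genes whose other probes did not.

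**Figure D5:**
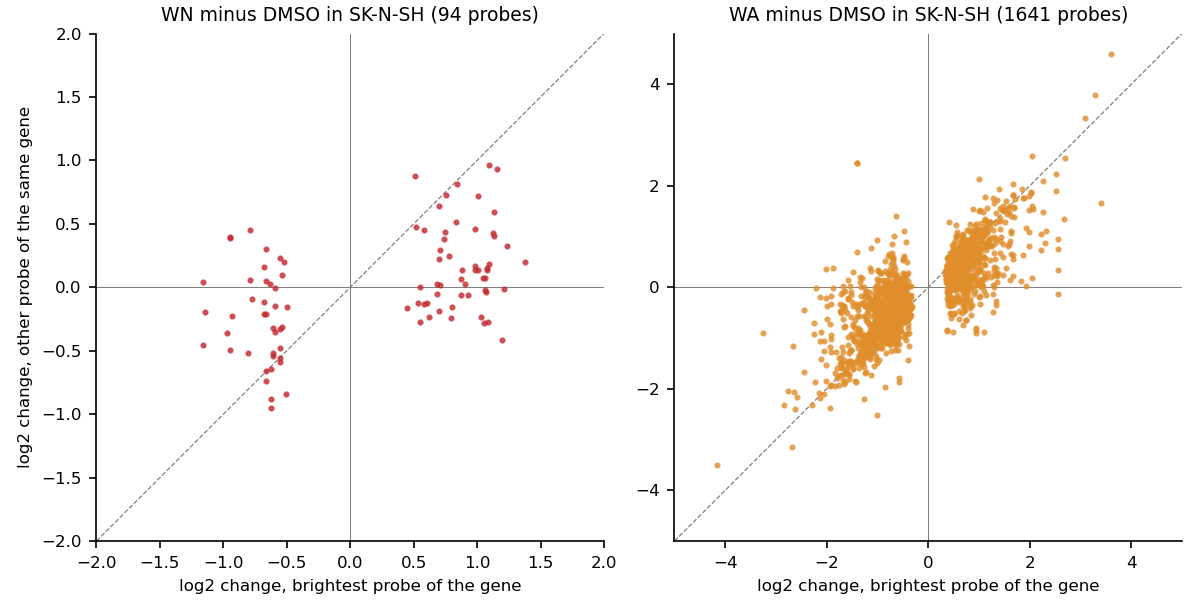
Log2 change of the other measured probes of called genes (vertical) against that of the brightest probe of the same gene (horizontal), for WN minus DMSO in SK-N-SH on the left (94 probes) and WA minus DMSO on the right (1641 probes), with dashed lines of equality and different axis ranges. On the left 63 of 94 points lie on the same side of 0 on both axes, and on the right 1447 of 1641 do.

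The median lengths of the higher and lower genes in the annotation were set side by side after the values were seen, with no test. The median gene length was 36.1 kb for the 120 higher genes, 13.0 kb for the 118 lower genes and 28.2 kb for all genes tested. In IMR-32 the higher genes had a median of 27.9 kb and the lower genes 6.26 kb, whereas the WA calls of SK-N-SH had 25.9 and 29.3 kb. Genes named ZNF and a number gave 11 higher and 6 lower calls of 405 measured (2.72% and 1.48%, against 0.925% and 0.909% of all genes). Genes named TMEM and a number gave 3 higher and 2 lower of 173 with WN (1.73% and 1.16%). Those named MRPL or MRPS gave 1 higher and 2 lower of 79 (1.27% and 2.53%). With WA in SK-N-SH 110 of the 405 ZNF genes were higher and 30 lower (27.2% and 7.41%, against 16.4% and 15.4% of all genes). Small nucleolar RNAs and their host genes gave 0 higher and 4 lower calls of 153 with WN (2.61% lower, against 0.909% of all genes). In IMR-32 they gave 0 higher and 13 lower with WN (8.50% lower, against 2.19% of all genes). With WA in SK-N-SH they gave 9 higher and 17 lower (5.88% and 11.1%, against 16.4% and 15.4% of all genes). Whether length or RNA class moves with the brightness of the WN arrays was not tested.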

How the data were processed

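Signal intensities were deposited without normalization, 1 per probe and array with a detection p-value, per the file headers, and a table of log2 values was deposited as well. The submitters' processing notes name limma, and the background step is not given in the sources used here. The detection p-values deposited for the WN arrays did not follow their own signals, so they were derived again. For each WN array the running median of its own deposited p-values was taken in order of its own signals. That median was then fitted so that p never rose with signal. Of 47224 probes, 2 with missing values were left out. The neqc function of limma 3.58.1 in R 4.3.3 corrected background (offset of 16), quantile normalized all 18 arrays and took log2. Probes with a detection p under 0.01 on at least 3 arrays and 1 gene symbol were kept, and the brightest stood for its gene, giving 12975 genes. The platform annotation named 30107 probes with 1 symbol, 8 with several and left 17107 unnamed.

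A limma fit with 1 mean per group over 18 arrays gave all tests, with Benjamini-Hochberg adjustment over all genes at 0.05, and it was tested on simulated data. Same-numbered WN and DMSO arrays deviated together (r of 0.458, 0.372 and 0.663), the numbers being those of the labels. WN 1 with DMSO 2 and WN 2 with DMSO 1 did so less strongly (r of 0.317 and 0.231). A fit with the replicate number as a block was an alternative. The alternatives changed background, normalization, filter, arrays, weights and the probe summary. The design text calls the replicates biological, and no label tells whether cultures were separate. The p-values thus measure the spread between these samples, pooled over all 18 arrays of both lines. Named genes were the 15 largest called changes in each direction, up to 4 called members per list or otherwise the 2 with the largest difference, the 8 largest in each direction between WN and WA, and 13 followed genes, of which those with values shown are described. NDUFC2, TXNRD1, SLC3A2 and HSPA6 were named after their values were seen. Members and lists were chosen with earlier results of these data known.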

Additional observations from a re-analysis of the deposited data

How the results depend on the processing

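Of the 3 counts of called genes, that of WN against WA stayed within 1.5 times of 4970 under all alternatives run for it (3631 to 5689). The 238 calls between WN and DMSO did not. With limma they numbered 422 without background correction and 422 on the deposited log2 table, 363 with an offset of 50, 495 with the replicate block and 1495 with array weights. There were 0 with the 9 SK-N-SH arrays, the 6 WN and DMSO arrays, those 6 normalized by themselves or the 9 with the block (1579, 1948, 1920 and 2081 genes at an unadjusted p under 0.05), and 631 with the 6 and the block. Leaving out 1 array gave 1 to 152, and leaving out replicate 3 of both groups gave 14. The fits without replicate 3 of both groups and those with the block on 9 or 6 arrays were chosen after seeing the data. The cause of these shifts was not tested. For the difference between lines, 0 became 1 with cyclic loess, 5 with array weights and 0 to 2 with 1 array left out, the highest without IMR-32 WN replicate 3. None of the 34 called genes that the naming rule gave changed direction. NDUFC2, named after its values were seen, was not followed through the alternatives. Among uncalled WN minus DMSO differences, TFRC became 0.0032 with cyclic loess, GDF15 0.070 and NFE2L2 −0.051 with array weights, and KEAP1 0.042, NFE2L2 −0.047 and TFRC 0.030 without replicate 3 of both groups. With 1 array left out they ran from −0.078 to 0.38 for PPEF1, −0.47 to 0.86 for INSM2, −0.42 to 0.56 for MYCN, −0.63 to 0.40 for GDF15, −0.14 to 0.19 for HMOX1, −0.19 to 0.033 for KEAP1, −0.069 to 0.077 for NFE2L2 and −0.099 to 0.014 for TFRC. Signal near background limits PPID, GSDMA, NDUFC2, SLC7A11 and HSPA6 to bounds or to no fold.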
